A study of Homo sapiens with 9 samples.

Results

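RNA sequencing of RD cells carrying the hairpin shTRPS1#2 was compared with RNA sequencing of RD cells carrying the non-targeting hairpin shNT, with 3 libraries on each side, which are 6 of the 9 libraries of the series. RD is an established human line from an embryonal rhabdomyosarcoma, a tumour whose cells are committed to skeletal muscle and do not complete its differentiation, and the labels call the cells rhabdomyoblasts. Libraries were chosen by the hairpin and the replicate number in their own labels. The other 3 libraries carry shTRPS1#1, a different hairpin against the same gene, and served to separate the changes that were seen with shTRPS1#2 and not with shTRPS1#1. Cells of all 3 groups received 1 µM doxycycline, for 2 days in a growth medium (10% fetal bovine serum) followed by 10 days in a differentiation medium (2% horse serum), and no group without doxycycline or without differentiation medium was analysed here. The hairpin lines bear an i in their titles, and the labels do not say whether a line is a clone or a pool, nor whether the libraries of a group came from separate cultures. The p-values therefore rest on the scatter between libraries, and that scatter may be technical.

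TRPS1 is a zinc finger protein of the GATA type that binds DNA and acts mainly as a repressor, in part by recruiting the NuRD corepressor complex, and its mutation causes a syndrome of hair, face and bone. The series title asks how it bears on myogenic differentiation. A short hairpin RNA is trimmed to a small guide RNA that pairs with its target mRNA and lowers it, and hairpins against the same gene pair with different stretches. Myoblasts that differentiate leave the cell cycle and switch on the genes of the contractile apparatus, with isoforms that mark fast and slow fibres.

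Sequencing depth was even. Totals were 21965744, 22287748 and 22378996 counts in the shTRPS1#2 libraries, 22302248 to 23289062 in the shTRPS1#1 libraries and 22480288 to 22945103 in the shNT libraries. Libraries of the same group differed beyond counting noise, since chi-square divided by its degrees of freedom was 1.26 to 2.64. The first principal component (24.8% of the variance) placed the shTRPS1#2 libraries at 17.1 to 17.4, the shTRPS1#1 libraries at -16.6 to -13.7 and the shNT libraries at -2.63 to -0.33. The second component (21.8%) set the shNT libraries apart from those of both hairpins. On it shNT lay at 16.8 to 18.6, shTRPS1#1 at -10.6 to -10 and shTRPS1#2 at -8.33 to -6.9. The third component (10.2%) spread the shTRPS1#2 libraries among themselves, at -13.9, -0.202 and 14.9 for replicates 1, 2 and 3.

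The targeted gene was lower in every shTRPS1#2 library. Levels are given in CPM, counts scaled to a TMM-adjusted library total of 1000000. TRPS1 (ENSG00000104447, chromosome 8, 115408496 to 115809673, minus strand, GRCh38) had 56.4, 59.0 and 56.9 CPM with shTRPS1#2. With shNT it had 76.5, 70.0 and 74.1 CPM, and the groups did not overlap. The log2 fold change was -0.36 ± 0.04 (SE, edgeR adjusted p = 1.02e-08). With shTRPS1#1 the levels were 55.4, 61.7 and 56.3 CPM, and the log2 difference of shTRPS1#2 from shTRPS1#1 was -0.01 ± 0.05 (edgeR adjusted p = 0.913), so TRPS1 mRNA was not called apart between the hairpins.

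Across the transcriptome, many genes moved with shTRPS1#2 and most moved little. Of 17014 genes tested, 3213 (18.9%) were called, meaning an adjusted p under 0.05 in edgeR's quasi-likelihood test, with 1533 higher (9.01%) and 1680 lower (9.87%) than with shNT. The slight excess of lower calls depended on the settings, with 1598 higher and 1595 lower under RLE scaling and 1566 higher and 1551 lower with only the 6 libraries of the contrast. The median absolute log2 fold change among them was 0.24 and the 90th percentile was 0.64. A change of at least 1.5-fold was found for 391 called genes (2.3% of those tested), 290 of them higher and 101 lower, and 120 changed at least 2-fold. The share of genes called grew with the level of expression, at 5.55%, 16.2%, 22.8% and 31% in 4 equal groups of genes ordered by average log2 CPM, low to high. Of 13482 protein-coding genes 1359 were higher (10.1%) and 1603 lower (11.9%). Of 923 long intergenic noncoding RNAs 57 were higher (6.18%) and 22 lower (2.38%), and of 999 antisense RNAs 47 were higher (4.7%) and 16 lower (1.6%). With shTRPS1#1 against the same shNT libraries 2285 genes were called (13.4%), 1208 higher (7.1%) and 1077 lower (6.33%), and between shTRPS1#2 and shTRPS1#1 3330 were called (19.6%), 1514 higher (8.9%) and 1816 lower (10.7%).

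Changes absent from shTRPS1#1 were set apart by a fixed rule. A gene belonged to this class if it was called with shTRPS1#2 against shNT, was called in the same direction between shTRPS1#2 and shTRPS1#1, and was not called in that direction with shTRPS1#1. The class held 1426 genes (8.38% of those tested and 44.4% of those called with shTRPS1#2), 560 higher (3.29%) and 866 lower (5.09%). The values that define the class also give the fold changes of its members, which are therefore a description. The 560 higher genes had a median log2 fold change of 0.23 with shTRPS1#2 and -0.01 with shTRPS1#1, and the 866 lower genes had -0.23 with shTRPS1#2 and 0.03 with shTRPS1#1. At least 1.5-fold changes were more frequent on the rising side, with 96 genes higher and 41 lower. In 523 of the higher genes and 794 of the lower genes, all 3 shTRPS1#2 libraries lay outside the range of both other groups. Over all genes tested, the shTRPS1#2 libraries lay wholly above those of shNT in 14.9% and wholly below them in 16.9%. These shares leave out shTRPS1#1 and so are a looser count than the 523 and 794 genes. The class was also chosen by calls on the same libraries, so its separation is a description. A further 795 genes (384 higher and 411 lower) were called with shTRPS1#2 and not with shTRPS1#1 while the hairpins were not called apart, and for these no difference between the hairpins is shown. The other 992 called genes (589 higher and 403 lower) were called in the same direction with both hairpins, against the same shNT libraries. Among them the hairpins were also called apart for 159 that changed more and 138 that changed less with shTRPS1#2.

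**Figure D1:**
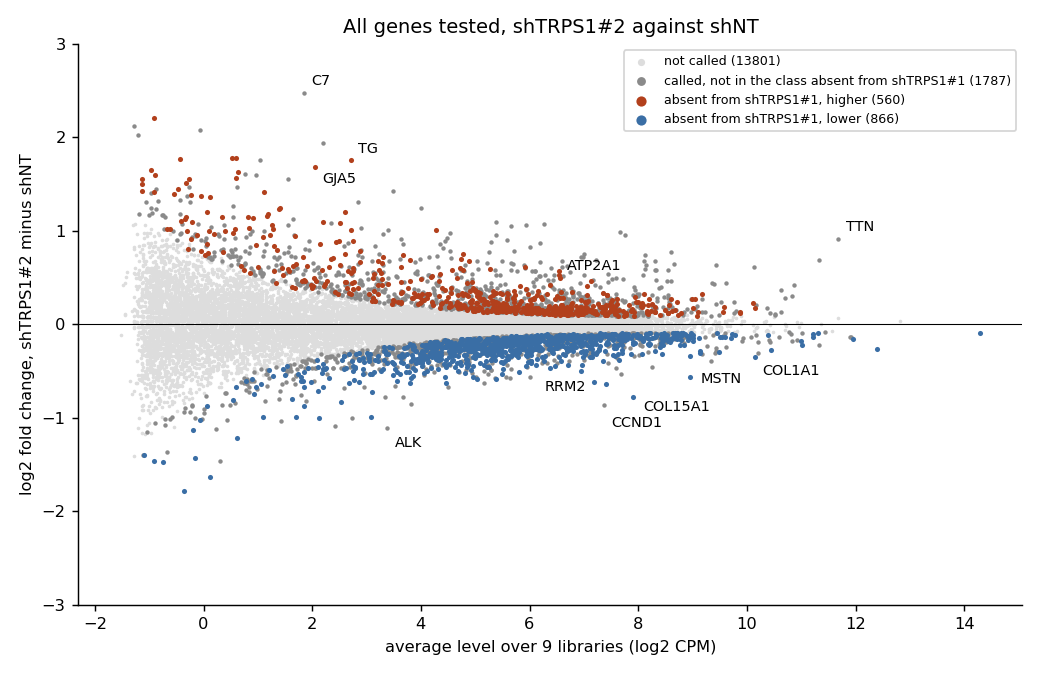
Log2 fold change of shTRPS1#2 over shNT against the average level over 9 libraries (log2 CPM), with 1 point per gene tested and 1 gene outside the plotted range of -3 to 3. Red points are the 560 higher and blue points the 866 lower genes of the class absent from shTRPS1#1, and dark grey points are other called genes. The class reaches the highest levels of expression mainly with small changes, and its larger changes lie at low levels and mostly above 0.

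Genes that copy and divide the genome were lower with shTRPS1#2 in large numbers. Of 38 genes of origin licensing and the replication fork, 32 were lower and 0 higher with shTRPS1#2. Their median log2 fold change was -0.31, beside -0.01 over all genes tested, and 26 of the falls belonged to the absent class. With shTRPS1#1 the same list had 1 gene higher, 2 lower and a median of 0.01. MCM7, a subunit of the replicative helicase, had 228, 226 and 228 CPM with shTRPS1#2, 302, 276 and 295 CPM with shTRPS1#1 and 272, 292 and 284 CPM with shNT. Its log2 fold change over shNT was -0.32 ± 0.03 for shTRPS1#2 and 0.04 ± 0.03 for shTRPS1#1, with edgeR adjusted p-values of 4.73e-10 and 0.532. The shTRPS1#2 libraries were below all others, and the libraries of shTRPS1#1 and shNT overlapped. CHAF1A, the large subunit of the chaperone that loads histones behind the fork, stood at 52.9, 50.5 and 56.5 CPM with shTRPS1#2, 75.1, 68.0 and 74.8 CPM with shTRPS1#1 and 68.5, 68.5 and 73.4 CPM with shNT. The fall in GINS2, a subunit of the helicase complex, was the steepest of those named in this list (-0.57 ± 0.05 with shTRPS1#2), and GINS2 was also lower with shTRPS1#1 (-0.17 ± 0.05, edgeR adjusted p = 0.015).

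Enzymes of nucleotide synthesis followed, with 15 of 25 lower and 0 higher with shTRPS1#2 (median -0.18), against 0 lower and 2 higher with shTRPS1#1. RRM2, the small subunit of ribonucleotide reductase, which makes the DNA precursors, had 119, 118 and 126 CPM with shTRPS1#2, 206, 194 and 201 CPM with shTRPS1#1 and 175, 193 and 194 CPM with shNT. The groups did not overlap between shTRPS1#2 and shNT, and the log2 fold change was -0.63 ± 0.04 (edgeR adjusted p = 1.22e-18), the largest fall of any gene in these cell cycle lists apart from CCND1. TYMS, thymidylate synthase, had a log2 fold change of -0.43 ± 0.04 with shTRPS1#2 and 0.11 ± 0.04 with shTRPS1#1, where it was not called (edgeR adjusted p = 0.0768).

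Genes of the mitotic machinery were lower too. In the kinetochore and centromere list 28 of 35 genes were lower and 0 higher with shTRPS1#2 (median -0.30), 27 of them in the absent class, and with shTRPS1#1 3 were higher and 1 lower. In the list of mitotic kinases, cyclins and exit factors 27 of 33 were lower and 0 higher with shTRPS1#2 (median -0.33), and with shTRPS1#1 0 were lower and 7 higher. Among motors and spindle proteins 31 of 35 were lower and 1 higher (median -0.285). The higher gene was STMN1, stathmin, which destabilises microtubules and was higher with shTRPS1#2 (0.13 ± 0.03, edgeR adjusted p = 0.00174).

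TOP2A, the topoisomerase that disentangles sister chromosomes, had 152, 159.7 and 164 CPM with shTRPS1#2, 239.8, 225 and 241 CPM with shTRPS1#1 and 202, 209 and 210.5 CPM with shNT. The 3 groups did not overlap, with shTRPS1#2 lowest and shTRPS1#1 highest, and the log2 fold changes were -0.38 ± 0.04 and 0.18 ± 0.04 with shTRPS1#2 and shTRPS1#1 (edgeR adjusted p = 4.04e-12 and 7.48e-05). MKI67, the proliferation antigen Ki-67, had the same order, at 148, 154 and 148 CPM with shTRPS1#2, 238, 214 and 238 CPM with shTRPS1#1 and 189, 179 and 202 CPM with shNT. CDK1, the kinase that drives entry into mitosis, stood at 32.6, 34.7 and 36.6 CPM with shTRPS1#2, 51.3, 50.4 and 50.9 CPM with shTRPS1#1 and 47.1, 51.9 and 51.2 CPM with shNT. Its libraries with shTRPS1#2 were the lowest, while those of the other groups overlapped, and its log2 fold change was -0.53 ± 0.05 (edgeR adjusted p = 4.16e-12). KIF11, the motor that pushes the spindle poles apart, fell by a similar amount (-0.44 ± 0.04, edgeR adjusted p = 1.99e-11), at 54.3, 54.2 and 59.2 CPM with shTRPS1#2 and 74.4, 75.8 and 76.6 CPM with shNT. The transcription factors FOXM1 and MYBL2, which drive genes of late S phase and mitosis, had log2 fold changes of -0.45 ± 0.05 and -0.44 ± 0.05 with shTRPS1#2, and both were higher with shTRPS1#1 (0.13 ± 0.04 and 0.31 ± 0.04, edgeR adjusted p = 0.0477 and 2.15e-07).

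**Figure D2:**
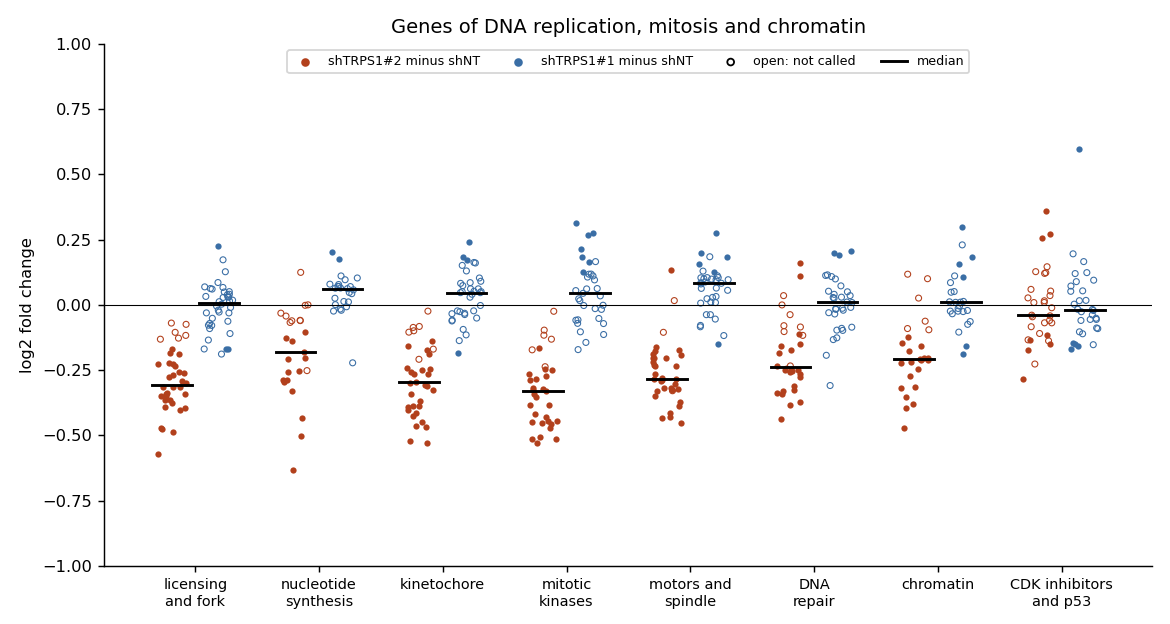
Log2 fold change of each gene in 8 lists, with shTRPS1#2 minus shNT in red on the left and shTRPS1#1 minus shNT in blue on the right of each list, filled where called and open where not. Both contrasts use the same 3 shNT libraries, and black bars are medians. The red medians lie between -0.33 and -0.18 in the first 7 lists and at -0.04 in the CDK inhibitor and p53 list, and the blue medians lie between -0.02 and 0.08.

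Many genes of DNA repair and of chromatin were lower as well. Of 32 genes of recombination repair and the Fanconi pathway 21 were lower and 2 higher with shTRPS1#2. The 2 higher genes were BRIP1 (0.16 ± 0.05), a helicase, and ATM (0.11 ± 0.03), the kinase that signals DNA breaks, and both calls were lost without certain single libraries (shNT replicate 2 or 3 or shTRPS1#2 replicate 2 for ATM, shNT replicate 1 or 3 or shTRPS1#2 replicate 3 for BRIP1). Of 25 genes of chromatin and the nuclear envelope 19 were lower and 0 higher. The chromatin protein HMGB2 had 63.7, 60.3 and 65.5 CPM with shTRPS1#2 and 84.6, 92.9 and 85.3 CPM with shNT, and EZH2, the histone methyltransferase of the Polycomb complex, had 52.5, 50.7 and 54.6 CPM with shTRPS1#2 and 67.4, 69.7 and 70.2 CPM with shNT. Neither gene's groups overlapped.

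Regulators of cell cycle entry moved in a mixed way. Among 26 E2F and DREAM regulators 15 were lower and 0 higher with shTRPS1#2, and 10 of these falls were in the absent class, among them E2F7 (-0.57 ± 0.08), CCNE1 (-0.41 ± 0.06) and E2F1 (-0.28 ± 0.05). CCND1, cyclin D1, was not in the class: it had 133, 133 and 122 CPM with shTRPS1#2, 137, 130.2 and 134 CPM with shTRPS1#1 and 239, 232 and 235 CPM with shNT, and the hairpins were not called apart (log2 difference -0.05 ± 0.04, edgeR adjusted p = 0.442). Of 31 CDK inhibitors and p53 targets 3 were higher (9.68%) and 5 lower (16.1%), beside 9.01% and 9.87% over all genes tested. CDKN1A, the CDK inhibitor p21, was higher with shTRPS1#2 (0.36 ± 0.04, edgeR adjusted p = 6.01e-10) and higher still with shTRPS1#1 (0.60 ± 0.04), with the 3 groups apart at 113, 118 and 107 CPM with shTRPS1#2, 136, 127 and 135 CPM with shTRPS1#1 and 87.3, 85.2 and 90.6 CPM with shNT. CDKN2C, the inhibitor p18, had a log2 fold change of -0.29 ± 0.05 and belonged to the absent class. In libraries of whole cultures, fewer dividing cells and less of each mRNA per dividing cell cannot be told apart.

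Promoter sequences were read for motifs known from cell cycle genes, and 4 are shown for the genes described above. A RefSeq window of 300 bases (250 before and 50 after the transcription start, GRCh38.p14) was matched by symbol to 11840 of 17003 symbols tested. Capitals mark the element TTTGAA on either strand, known as the cell cycle homology region (CHR) of mitotic genes, and an E2F motif, here TTCCCGC, its variant with the letters TTCGCGC, its variant with the letters TTGCCGC or its variant with the letters TTGGCGC, on either strand, where overlapping matches run together. KIF11 lies at chr10:92592880-92593179 (plus strand), CDK1 at chr10:60778081-60778380 (plus strand), MCM7 at chr7:100101348-100101647 (minus strand) and CHAF1A at chr19:4402390-4402689 (plus strand).
KIF11: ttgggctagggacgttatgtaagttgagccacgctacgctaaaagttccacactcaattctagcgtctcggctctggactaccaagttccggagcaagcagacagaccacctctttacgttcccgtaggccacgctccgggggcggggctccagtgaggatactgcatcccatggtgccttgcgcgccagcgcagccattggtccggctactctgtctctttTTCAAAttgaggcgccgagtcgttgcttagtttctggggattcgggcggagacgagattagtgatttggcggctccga
CDK1: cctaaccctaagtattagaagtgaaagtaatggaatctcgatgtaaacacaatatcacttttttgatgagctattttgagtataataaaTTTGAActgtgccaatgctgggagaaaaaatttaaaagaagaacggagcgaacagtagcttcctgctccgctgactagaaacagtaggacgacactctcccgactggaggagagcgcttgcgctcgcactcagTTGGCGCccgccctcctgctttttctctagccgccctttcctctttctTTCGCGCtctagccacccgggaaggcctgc
MCM7: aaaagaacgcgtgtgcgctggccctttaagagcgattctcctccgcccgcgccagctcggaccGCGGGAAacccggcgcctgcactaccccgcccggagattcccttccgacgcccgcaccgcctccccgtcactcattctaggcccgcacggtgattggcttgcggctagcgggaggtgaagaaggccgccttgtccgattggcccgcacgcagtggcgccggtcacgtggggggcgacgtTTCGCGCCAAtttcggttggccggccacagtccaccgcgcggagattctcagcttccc
CHAF1A: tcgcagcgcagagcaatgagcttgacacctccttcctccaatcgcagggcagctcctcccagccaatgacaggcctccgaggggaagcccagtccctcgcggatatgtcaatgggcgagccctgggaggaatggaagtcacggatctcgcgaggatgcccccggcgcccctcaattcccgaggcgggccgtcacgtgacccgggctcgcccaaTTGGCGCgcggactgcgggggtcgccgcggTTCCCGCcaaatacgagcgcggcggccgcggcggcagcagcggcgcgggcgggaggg
The KIF11 window holds a CHR element whose first base is at -28 from the start and no E2F motif, the MCM7 and CHAF1A windows hold E2F motifs and no CHR element, and the CDK1 window holds both.

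The shares of windows with each motif differed between lists, with overlap. A CHR element was present in 9.94% of all windows of genes tested, in 16.6% of the 682 windows of genes lower in the absent class and in 9.95% of the 412 windows of genes higher in it. It was found in 25 of 33 windows of motors and spindle genes (75.8%), in 15 of 26 of mitotic kinase genes (57.7%), in 13 of 29 of kinetochore genes (44.8%) and in 0 of 34 of licensing and fork genes. An E2F motif was present in 20.1% of all windows, in 28.7% of those of genes lower in the absent class and in 27 of 34 of licensing and fork genes (79.4%). It was also found in 12 of 29 windows of kinetochore genes (41.4%), in 12 of 33 of motors and spindle genes (36.4%) and in 5 of 26 of mitotic kinase genes (19.2%). Among the 300 windows of genes lower with both hairpins, 10.3% held a CHR element and 20.3% an E2F motif. The shares of the lists count every member with a window, called or not, and so do not depend on the hairpin. All of these are counts of letters, made without a test.

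Among genes of protein synthesis, those of the ribosome's own proteins were lower with shTRPS1#2. Of 62 cytosolic ribosomal protein genes 38 were lower and 0 higher with shTRPS1#2 (median -0.11), against 0 lower and 1 higher with shTRPS1#1 (median 0.04), and 35 of the falls were in the absent class. RPS13, a protein of the small subunit, had 114, 121 and 122 CPM with shTRPS1#2, 156, 156 and 158 CPM with shTRPS1#1 and 140.5, 158 and 157 CPM with shNT, a log2 fold change of -0.35 ± 0.04 (edgeR adjusted p = 5.84e-10). RPL28, a protein of the large subunit, had 421, 420.4 and 396 CPM with shTRPS1#2, 479, 461 and 512 CPM with shTRPS1#1 and 465, 489.9 and 483 CPM with shNT. In both genes the shTRPS1#2 libraries were below all others. Ribosomal protein genes have many processed pseudogenes, so their counts may miss or gain reads. Of 40 ribosome biogenesis genes (median -0.001) 4 were lower (10%) and 2 higher (5%), and of 39 translation factors 4 were lower (10.3%) and 2 higher (5.13%). Over all genes tested 9.87% were lower and 9.01% higher. Of 42 mitochondrial ribosomal proteins 0 were called with shTRPS1#2 in edgeR's test.

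Among splicing proteins the calls ran down by small steps. In a list of 34 heterogeneous nuclear ribonucleoproteins and SR proteins, written after the values had been seen, 15 were lower and 0 higher with shTRPS1#2 (median -0.08), and 1 was lower with shTRPS1#1. HNRNPD, which binds AU-rich mRNA, had 331, 328 and 345 CPM with shTRPS1#2 and 367, 382 and 369.7 CPM with shNT (log2 fold change -0.16 ± 0.03, edgeR adjusted p = 0.000284), and SRSF3, a splicing activator, had 239.6, 239.6 and 247 CPM with shTRPS1#2 and 253, 273 and 266 CPM with shNT. The shTRPS1#2 libraries lay below shNT in both, though the SRSF3 call was lost without shNT replicate 2, and the HNRNPD difference from shTRPS1#1 was lost with scaling by library totals and without any 1 of 4 libraries (replicates 1 and 3 of shTRPS1#1, replicates 1 and 2 of shTRPS1#2).

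Among genes of amino acid supply and the ATF4 stress response the calls ran down with shTRPS1#2 and up with shTRPS1#1, and 18 of 30 were not called in each contrast. The list held the stress factor ATF4 and genes tied to it, in serine and one-carbon metabolism, amino acid transport and other stress responses. Of these 30 genes 12 were lower and 0 higher with shTRPS1#2 (median -0.14), and 12 were higher and 0 lower with shTRPS1#1 (median 0.12). All 12 falls were in the absent class, and 7 of these genes were called up with shTRPS1#1. PHGDH, the first enzyme of serine synthesis, had 159.7, 157 and 153 CPM with shTRPS1#2, 245, 228 and 249 CPM with shTRPS1#1 and 188, 198 and 198 CPM with shNT. Its log2 fold change over shNT was -0.32 ± 0.04 for shTRPS1#2 and 0.31 ± 0.04 for shTRPS1#1, with edgeR adjusted p-values of 1.24e-09 and 1.42e-09, and no 2 groups overlapped. MTHFD2, the mitochondrial folate enzyme, had 86.5, 91.7 and 95.4 CPM with shTRPS1#2, 150.3, 146 and 149 CPM with shTRPS1#1 and 125, 133 and 128 CPM with shNT, with the same order and no overlap. MTHFD2 and SHMT2 are also counted in the nucleotide synthesis list. DDIT4, an inhibitor of mTOR signalling, was lower with shTRPS1#2 (-0.40 ± 0.05) and had -0.03 ± 0.05 with shTRPS1#1, where it was not called.

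In lipid synthesis most genes were not called. Of 28 genes of cholesterol synthesis and uptake 7 were lower and 0 higher with shTRPS1#2 (median -0.06), against 10 higher and 0 lower with shTRPS1#1 (median 0.10). HMGCS1, which makes the first committed intermediate, had 282, 297 and 278 CPM with shTRPS1#2, 339.9, 364 and 345 CPM with shTRPS1#1 and 306, 322 and 314 CPM with shNT. In the 23 fatty acid genes 8 were lower and 3 higher with shTRPS1#2, while 8 were higher and 0 lower with shTRPS1#1. SREBF1, the transcription factor that drives this pathway, had a log2 fold change over shNT of -0.28 ± 0.05 for shTRPS1#2 and 0.13 ± 0.05 for shTRPS1#1 (edgeR adjusted p = 7.99e-06 and 0.0484), and its 3 groups did not overlap.

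Transcripts of the mitochondrial genome were lower, beside a lower share of mitochondrial reads. Of its 13 mRNAs 12 were lower and 0 higher with shTRPS1#2 (median -0.175), and 5 were lower with shTRPS1#1 (median -0.09). MT-CO2, a subunit of cytochrome oxidase, had 1230.0, 1269 and 1237 CPM with shTRPS1#2, 1342, 1358 and 1546 CPM with shTRPS1#1 and 1500.1, 1479 and 1548 CPM with shNT (log2 fold change -0.28 ± 0.04, edgeR adjusted p = 1.95e-08). MT-ND6, the mRNA read from the other strand of the circle, had 75.8, 64.0 and 58.0 CPM with shTRPS1#2 and 80.0, 84.4 and 87.7 CPM with shNT. Both genes were below shNT in every shTRPS1#2 library, and the MT-ND6 difference from shTRPS1#1 was lost with DESeq2 and without shTRPS1#1 replicate 3 or shTRPS1#2 replicate 3. Mitochondrial reads made up 2.38% to 2.48% of counts with shTRPS1#2, 2.54% to 2.6% with shTRPS1#1 and 2.69% to 2.74% with shNT, and the part of RNA quality in this result was not tested. Nuclear genes of the respiratory chain showed 2 higher and 1 lower of 41.

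**Figure D3:**
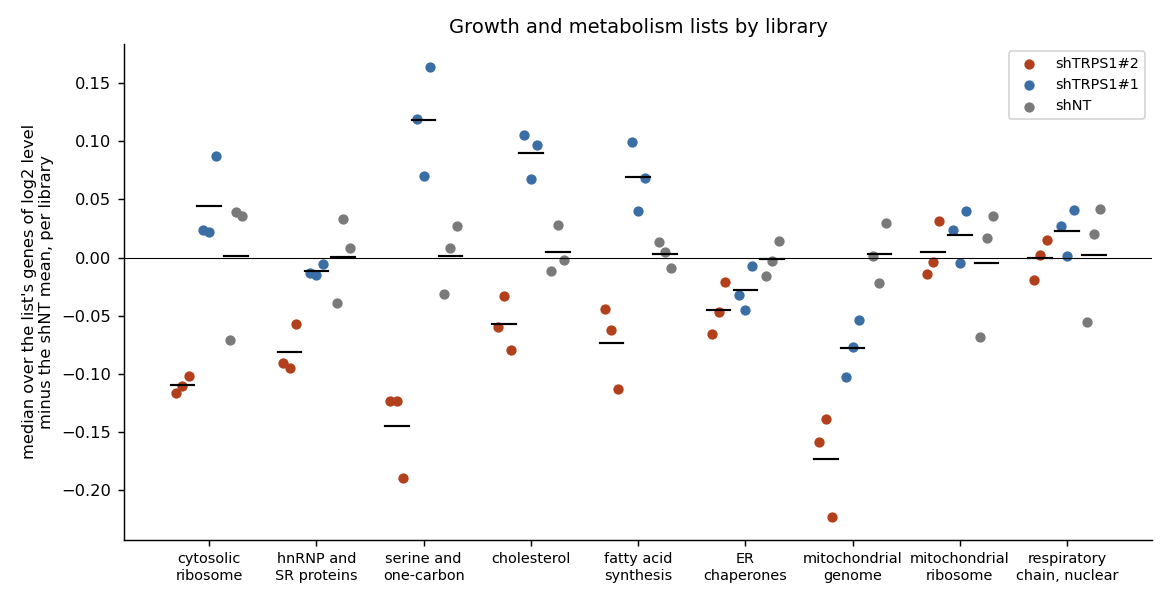
Median over the genes of 9 lists of each library's log2 level minus the shNT mean, for the shTRPS1#2, shTRPS1#1 and shNT libraries from left to right, with bars at the group means. In the cytosolic ribosome, splicing protein, serine, cholesterol, fatty acid and mitochondrial genome lists the 3 shTRPS1#2 libraries lie below the 6 others, and in the mitochondrial ribosome list the groups overlap.

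Most contractile genes were higher with shTRPS1#2. Of 21 thick filament genes 18 were higher and 0 lower (median 0.59), of 38 thin filament and Z-disc genes 27 were higher and 1 lower (median 0.46), and of 25 genes of calcium handling 12 were higher and 2 lower (median 0.24). With shTRPS1#1 the counts were 17 and 0, 25 and 0, and 16 and 0. TTN, the giant protein titin, had 4446, 4386 and 3821 CPM with shTRPS1#2, 3503, 3465 and 3314 CPM with shTRPS1#1 and 2456, 1992 and 2250.2 CPM with shNT, so that replicate 3 was the lowest shTRPS1#2 library and the groups were apart. TNNC1, the slow and cardiac troponin C, had 80.9, 82.3 and 77.7 CPM with shTRPS1#2, 65.2, 62.3 and 69.0 CPM with shTRPS1#1 and 35.7, 40.5 and 38.8 CPM with shNT, a log2 fold change of 1.07 ± 0.05 (edgeR adjusted p = 8.34e-24). MYH7 and MYH8, the slow and perinatal myosin heavy chains, rose less with shTRPS1#2 (0.72 ± 0.04 and 0.83 ± 0.05) than with shTRPS1#1, with log2 differences between the hairpins of -0.41 ± 0.03 and -0.52 ± 0.04 (edgeR adjusted p = 2.42e-13 and 6.77e-14).

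Several genes of fast fibres were higher with shTRPS1#2 and not with shTRPS1#1. In a list of 24 tested fast fibre genes, written after the values had been seen, 17 were higher and 3 lower with shTRPS1#2 (median 0.47), against 9 higher and 3 lower with shTRPS1#1 (median 0.17), and 9 rises were in the absent class. In a list of 20 slow fibre genes written at the same time 12 were higher and 1 lower with shTRPS1#2 (median 0.33), against 9 higher and 2 lower with shTRPS1#1 (median 0.27), and 3 rises were in the absent class. ATP2A1, the fast fibre calcium pump SERCA1, had 118, 117 and 120.3 CPM with shTRPS1#2, 81.9, 75.4 and 82.0 CPM with shTRPS1#1 and 82.4, 81.8 and 86.8 CPM with shNT. Its log2 fold change over shNT was 0.50 ± 0.04 for shTRPS1#2 and -0.07 ± 0.04 for shTRPS1#1, with edgeR adjusted p-values of 8.73e-15 and 0.316, and only the shTRPS1#2 libraries stood apart. MYBPC2, the fast form of myosin-binding protein C, had 9.66, 10.8 and 8.84 CPM with shTRPS1#2, 5.56, 4.37 and 5.07 CPM with shTRPS1#1 and 5.22, 5.26 and 5.25 CPM with shNT. ACTN3, the fast Z-disc actinin, had 39.1, 36.2 and 35.2 CPM with shTRPS1#2, 27.5, 27.0 and 28.4 CPM with shTRPS1#1 and 28.2, 28.1 and 28.1 CPM with shNT. In both genes the pattern was that of ATP2A1.

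Genes of glycolysis were called both ways: of 28 genes 5 were higher and 3 lower with shTRPS1#2 (median 0.008), and 1 was higher and 3 lower with shTRPS1#1 (median -0.013). PGAM2, the muscle phosphoglycerate mutase of glycolysis, had 4.13, 4.72 and 4.84 CPM with shTRPS1#2, 2.73, 2.12 and 2.56 CPM with shTRPS1#1 and 2.06, 2.52 and 2.54 CPM with shNT, and lies opposite DBNL, whose mean of 218 CPM is far higher. FBP2, the muscle fructose bisphosphatase, had 2.59, 2.65 and 2.00 CPM with shTRPS1#2, 1.17, 1.31 and 1.21 CPM with shTRPS1#1 and 0.702, 0.840 and 0.787 CPM with shNT, all low levels. The groups of both genes were apart between shTRPS1#2 and shNT, and for FBP2 the shTRPS1#1 libraries also lay above shNT without being called. ENO3, the muscle enolase, rose by a small step (0.21 ± 0.03, edgeR adjusted p = 4.26e-06), and its difference from shTRPS1#1 was lost without shTRPS1#1 replicate 2. PVALB, parvalbumin, a calcium buffer of fast fibres, was higher with both hairpins and more so with shTRPS1#2, at 16.4, 17.2 and 18.1 CPM with shTRPS1#2, 9.50, 10.0 and 9.79 CPM with shTRPS1#1 and 6.54, 6.72 and 5.95 CPM with shNT. SLN, sarcolipin, which inhibits the calcium pump, went the other way: its log2 fold change was -0.33 ± 0.08 with shTRPS1#2 and 0.39 ± 0.07 with shTRPS1#1 (edgeR adjusted p = 0.00149 and 3.87e-05). MYBPC1, the slow form of myosin-binding protein C, was not called for shTRPS1#2 (-0.07 ± 0.06, edgeR adjusted p = 0.513), whereas its log2 fold change for shTRPS1#1 was 1.08 ± 0.06 (edgeR adjusted p = 3.13e-21). ACTN3, FBP2 and MYBPC1 were named after their values had been seen.

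**Figure D4:**
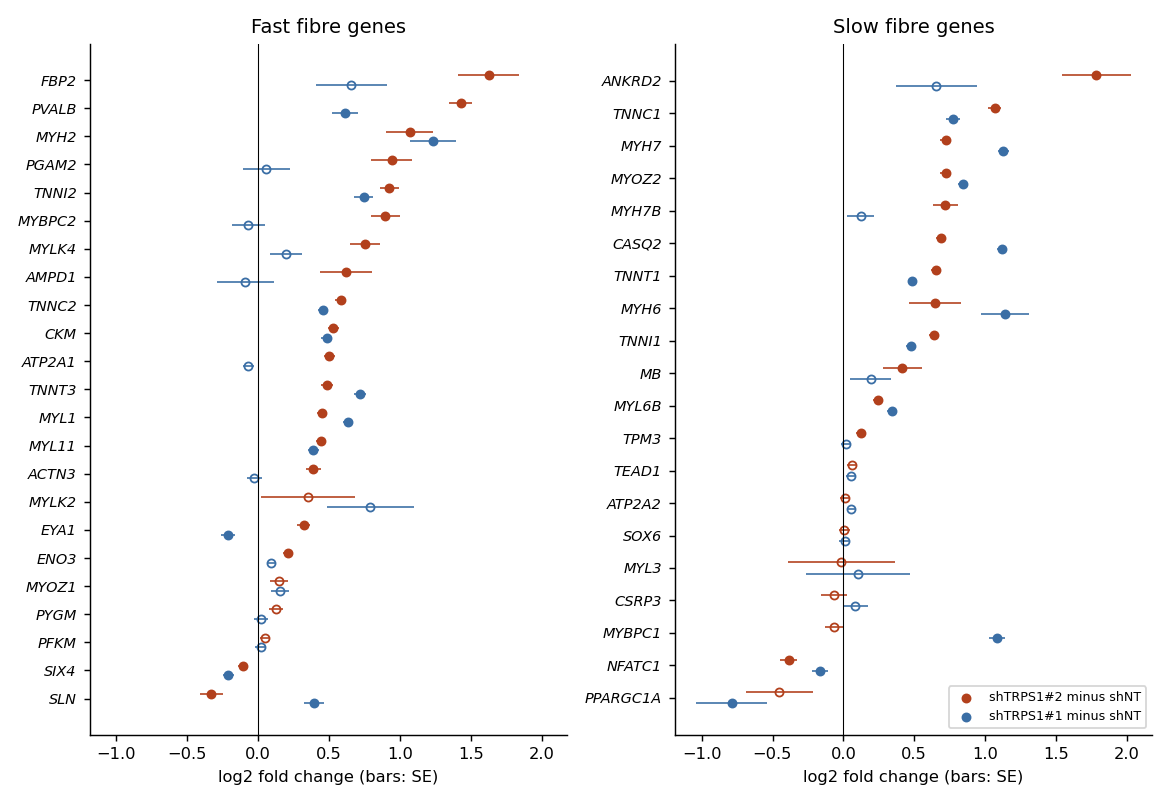
Log2 fold change with SE of fast and slow fibre genes, with shTRPS1#2 minus shNT in red above shTRPS1#1 minus shNT in blue for each gene, filled where called. Both contrasts share the shNT libraries, and 1 gene of the fast fibre list is not drawn. MYBPC2, ATP2A1 and ACTN3 have filled red points above 0 and open blue points at 0, and MYBPC1 has an open red point at 0 and a filled blue point above 1.

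Promoters of PVALB and ATP2A1, both fast fibre genes described above, are shown with muscle motifs in capitals: the E-box CAGCTG bound by myogenic factors, the MEF2 site and the CArG box of serum response factor, each searched on both strands. PVALB lies at chr22:36819450-36819749 (minus strand) and ATP2A1 at chr16:28878238-28878537 (plus strand), in the same RefSeq windows as above.
PVALB: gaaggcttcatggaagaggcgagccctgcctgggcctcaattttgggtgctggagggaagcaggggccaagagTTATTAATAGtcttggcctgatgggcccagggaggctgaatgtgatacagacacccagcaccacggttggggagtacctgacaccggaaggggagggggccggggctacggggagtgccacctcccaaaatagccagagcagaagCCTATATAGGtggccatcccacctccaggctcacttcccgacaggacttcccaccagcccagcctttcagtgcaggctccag
ATP2A1: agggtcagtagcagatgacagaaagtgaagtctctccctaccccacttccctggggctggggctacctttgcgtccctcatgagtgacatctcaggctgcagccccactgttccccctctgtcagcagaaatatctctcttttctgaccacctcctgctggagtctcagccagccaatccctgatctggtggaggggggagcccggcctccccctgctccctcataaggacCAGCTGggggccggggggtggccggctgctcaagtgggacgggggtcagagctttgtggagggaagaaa
The PVALB window holds a MEF2 site whose first base is at -177 and a CArG box at -32, and the ATP2A1 window holds an E-box at -19. A MEF2 site was present in 1.71% of all windows and in 5.16% of the 1143 windows of genes higher with shTRPS1#2. It was present in 3.16% of those of genes higher in the absent class and in 8.43% of the 451 windows of genes higher with both hairpins. For the E-box CAGCTG the shares in the same order were 17.6%, 23.4%, 22.6% and 24.8%, and for the CArG box 1.06%, 2.54%, 1.94% and 3.1%.

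Other muscle lists followed the contractile genes in part. Of 35 genes of fusion, membrane and junctions 19 were higher and 4 lower with shTRPS1#2 (median 0.14), beside 16 higher and 3 lower with shTRPS1#1 (median 0.12). Of 44 tested KLHL and ASB ubiquitin ligase adaptors, a list written after the values had been seen, 18 were higher and 2 lower with shTRPS1#2 (median 0.07), against 10 higher and 3 lower with shTRPS1#1, and 6 rises were in the absent class. KLHL31, an adaptor expressed in muscle, had a log2 fold change of 0.97 ± 0.07 with shTRPS1#2. Of 25 cytosolic heat shock proteins 7 were higher and 0 lower with shTRPS1#2, and of 27 chaperones of the endoplasmic reticulum 9 were lower and 0 higher, 7 of them in the absent class.

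Regulators of muscle identity moved both ways. Of 36 myogenic transcription factors 8 were higher and 9 lower with shTRPS1#2 (median 0.03). MYOD1, the master regulator of the lineage, was not called (0.04 ± 0.04, edgeR adjusted p = 0.557), MYOG, myogenin, was higher by a small step (0.20 ± 0.04) and MEF2C was higher (0.59 ± 0.03, edgeR adjusted p = 5.34e-20). In the absent class PAX7, the satellite cell factor, had 74.6, 69.0 and 65.8 CPM with shTRPS1#2, 106, 100.2 and 103 CPM with shTRPS1#1 and 87.6, 82.1 and 89.2 CPM with shNT. EYA1, a transcriptional coactivator, had 59.1, 60.2 and 56.3 CPM with shTRPS1#2, 40.1, 42.2 and 39.0 CPM with shTRPS1#1 and 49.3, 45.8 and 45.5 CPM with shNT. Both genes had 3 separate groups, with shTRPS1#2 lowest for PAX7 and highest for EYA1. HEYL, an effector of Notch signalling, and TCF12, a partner of MYOD1, were lower with shTRPS1#2 (-0.27 ± 0.03 and -0.17 ± 0.03) and not called with shTRPS1#1 (edgeR adjusted p = 0.796 and 0.454). The TCF12 difference from shTRPS1#1 was lost without shTRPS1#2 replicate 3.

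Genes of muscle turnover and hypertrophy went both ways: of 29 genes tested 7 were higher and 10 lower with shTRPS1#2 (median -0.05), and 1 rise and 6 falls were in the absent class. MSTN, myostatin, a secreted inhibitor of muscle growth, had 360.3, 360.1 and 381 CPM with shTRPS1#2, 561, 574 and 562 CPM with shTRPS1#1 and 538, 554 and 542 CPM with shNT. Its log2 fold change over shNT was -0.57 ± 0.03 for shTRPS1#2 and 0.06 ± 0.03 for shTRPS1#1, with edgeR adjusted p-values of 5.95e-20 and 0.29. INHBA, the subunit of activin A, had 1.04, 1.08 and 1.47 CPM with shTRPS1#2, 2.11, 3.06 and 2.56 CPM with shTRPS1#1 and 2.41, 2.48 and 2.27 CPM with shNT. Both genes had every shTRPS1#2 library below all others. DEPTOR, an inhibitor of mTOR, rose, at 28.9, 26.5 and 28.8 CPM with shTRPS1#2, 15.2, 16.9 and 15.6 CPM with shTRPS1#1 and 14.6, 12.03 and 15.1 CPM with shNT (log2 fold change 1.01 ± 0.07, edgeR adjusted p = 9.89e-17). The insulin-like growth factor binding proteins IGFBP2 and IGFBP5 were lower with shTRPS1#2 (-0.29 ± 0.03 and -0.26 ± 0.04), and IGFBP3 was higher (0.99 ± 0.04), though less so than with shTRPS1#1 (1.33 ± 0.04).

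Extracellular matrix genes were lower more often than higher. Of 52 collagen and matrix genes 23 were lower and 10 higher with shTRPS1#2 (median -0.09), against 16 lower and 17 higher with shTRPS1#1 (median 0.04), and 10 of the falls were in the absent class. COL15A1, a collagen of the basement membrane zone, had 167, 165 and 146 CPM with shTRPS1#2, 289.9, 279.9 and 282 CPM with shTRPS1#1 and 276, 274 and 267 CPM with shNT. The log2 fold change was -0.77 ± 0.04 (edgeR adjusted p = 3.15e-22), and replicate 3 was the lowest of the shTRPS1#2 libraries. COL1A1, the main chain of type I collagen, had 934, 926 and 918 CPM with shTRPS1#2, 1328, 1226 and 1300.5 CPM with shTRPS1#1 and 1186, 1128 and 1213 CPM with shNT, so that shTRPS1#2 was lowest, shTRPS1#1 highest and the groups were apart. Among 29 metalloproteinases and inhibitors 12 were lower and 3 higher. TIMP3, an inhibitor of these proteases, had 104, 106 and 111 CPM with shTRPS1#2, 171, 157 and 165 CPM with shTRPS1#1 and 164, 164 and 165 CPM with shNT, and MMP2, a gelatinase, had a log2 fold change of -0.30 ± 0.04 with shTRPS1#2 and -0.01 ± 0.04 with shTRPS1#1.

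Signalling lists held more falls than rises. Of 25 TGF-beta and BMP genes 10 were lower and 6 higher with shTRPS1#2, and 8 lower and 4 higher with shTRPS1#1. TGFBI, a matrix protein induced by TGF-beta, was lower with shTRPS1#2 (-0.42 ± 0.04) and not called with shTRPS1#1 (-0.08 ± 0.04, edgeR adjusted p = 0.244). Of 34 MAPK output genes 11 were lower and 1 higher with shTRPS1#2, and 14 lower and 1 higher with shTRPS1#1. Of 28 Wnt genes 7 were lower (25%) and 3 higher (10.7%), and of 20 Notch genes 4 were lower (20%) and 2 higher (10%). Of 12 Hedgehog genes 5 were lower (41.7%) and 1 higher (8.33%). Over all genes tested 9.87% were lower and 9.01% higher, so the rises in these lists were near the general share. Of 25 corepressor genes, NuRD included, 6 were lower and 1 higher, with 3 falls in the absent class, CTBP2 among them (-0.33 ± 0.04). GLI2, a transcription factor of Hedgehog signalling, had -0.34 ± 0.05 with shTRPS1#2 and 0.11 ± 0.05 with shTRPS1#1. NOTCH3, a Notch receptor, was lower with shTRPS1#2 (-0.16 ± 0.04) and higher with shTRPS1#1 (0.41 ± 0.04).

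Among axon guidance and neuronal genes more were higher than lower. Of 36 tested 7 were higher and 3 lower with shTRPS1#2 (median 0.05), against 8 higher and 9 lower with shTRPS1#1, and 6 rises were in the absent class. NTN1, the guidance cue netrin-1, had 30.4, 28.7 and 27.8 CPM with shTRPS1#2, 13.5, 11.98 and 11.6 CPM with shTRPS1#1 and 20.3, 19.2 and 19.98 CPM with shNT, 3 separate groups with shTRPS1#2 highest and shTRPS1#1 lowest. SLIT2, another guidance cue, had the same order (log2 fold change 0.32 ± 0.04 with shTRPS1#2 and -0.16 ± 0.04 with shTRPS1#1). NEFM, a neurofilament subunit, had 31.1, 34.1 and 39.0 CPM with shTRPS1#2 and 23.9, 21.4 and 24.3 CPM with shNT. Of 38 HOX genes and cofactors 4 were higher (10.5%) and 3 lower (7.89%), near the 9.01% and 9.87% over all genes tested. HOXB8 had 39.1, 39.0 and 41.1 CPM with shTRPS1#2, 26.1, 24.8 and 25.6 CPM with shTRPS1#1 and 30.5, 30.6 and 31.0 CPM with shNT, and was called up with shTRPS1#2 and down with shTRPS1#1.

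Most genes that respond to interferon were not called. Of 35 tested 7 were higher and 1 lower with shTRPS1#2 (median 0.08), against 4 higher and 2 lower with shTRPS1#1 (median 0.06). The median of the list per library, on the log2 scale from the shNT mean, was 0.046 to 0.124 with shTRPS1#2, 0.006 to 0.087 with shTRPS1#1 and -0.064 to 0.060 with shNT, so the groups overlap. RIGI, the sensor of foreign RNA, had 35.4, 35.2 and 34.2 CPM with shTRPS1#2, 27.9, 27.1 and 28.9 CPM with shTRPS1#1 and 25.7, 27.8 and 28.2 CPM with shNT, and IFIT1, an effector, had 56.1, 56.2 and 59.3 CPM with shTRPS1#2, 48.2, 52.97 and 54.7 CPM with shTRPS1#1 and 46.2, 50.7 and 48.2 CPM with shNT. With IFI44L (0.33 ± 0.09), these were the 3 interferon genes in the absent class, and the IFIT1 difference from shTRPS1#1 was lost with DESeq2 and without shTRPS1#1 replicate 1 or shTRPS1#2 replicate 3. AGO4, a small RNA binding protein, was lower with shTRPS1#2 (-0.24 ± 0.05), and of 19 genes of small RNA machinery 1 was higher and 1 lower.

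The largest single rises were of genes at low levels. C7, a complement component, had 7.49, 6.92 and 6.26 CPM with shTRPS1#2, 2.51, 2.48 and 2.43 CPM with shTRPS1#1 and 1.18, 1.19 and 1.31 CPM with shNT. Its log2 fold change was 2.48 ± 0.15 (edgeR adjusted p = 6.98e-19), the largest among genes with an average log2 CPM of at least 1. It was higher with both hairpins and higher with shTRPS1#2 than with shTRPS1#1. Further named rises, by falling size, were TG, GJA5, CYP2W1, PVALB, ROR2, TDRD1, DIO2, UNC80, STOML3 and DHRS3, with log2 fold changes of 1.75 to 1.21.

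Of these 11, 6 were in the class absent from shTRPS1#1. GJA5, the gap junction protein connexin 40, had 7.80, 7.50 and 6.75 CPM with shTRPS1#2, 2.51, 2.75 and 2.51 CPM with shTRPS1#1 and 2.11, 2.48 and 2.27 CPM with shNT, a log2 fold change of 1.68 ± 0.13 (edgeR adjusted p = 2.82e-15). ROR2, a receptor of Wnt signals, had 3.27, 3.46 and 3.95 CPM with shTRPS1#2, 1.43, 1.17 and 1.47 CPM with shTRPS1#1 and 1.40, 1.72 and 0.874 CPM with shNT. In both the shTRPS1#2 libraries were above all others, as the rule for naming them required. DIO2, the enzyme that activates thyroid hormone, had 4.67, 3.59 and 3.95 CPM with shTRPS1#2, 1.70, 1.89 and 2.25 CPM with shTRPS1#1 and 1.80, 1.15 and 2.19 CPM with shNT, and STOML3, a membrane protein of the stomatin family, had log2 fold changes of 1.24 ± 0.16 with shTRPS1#2 and -0.13 ± 0.20 with shTRPS1#1. TG, thyroglobulin, had 13.9, 13.4 and 11.02 CPM with shTRPS1#2, 3.41, 2.48 and 2.77 CPM with shTRPS1#1 and 4.47, 3.67 and 3.19 CPM with shNT. SLA, a signalling adaptor that lies inside TG on the opposite strand, had 3.31, 3.59 and 4.13 CPM with shTRPS1#2, 1.12, 1.35 and 0.996 CPM with shTRPS1#1 and 1.71, 2.34 and 1.62 CPM with shNT. Because the strand setting of the counting is not given in the sources used here, reads of TG and SLA cannot be told apart. The same limit holds for other named genes with an annotated neighbour on the opposite strand, MCM7, CHAF1A, ATP2A1, MSTN, ENO3 and MTHFD2 among them. The levels of these neighbours differ. Means were 1.02 CPM for SLC4A5 beside 123 CPM for MTHFD2, and 448 CPM for PFN1 beside 228 CPM for ENO3. RPS13 and HOXB8 overlap PIK3C2A and HOXB7 on the same strand. By the same rule GPAT3, RAG1 and USP6 completed the named rises of the class, at log2 fold changes of 1.18, 1.07 and 0.89 with shTRPS1#2.

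The largest single falls were smaller than the rises. ALK, a receptor tyrosine kinase, had 6.94, 8.40 and 6.40 CPM with shTRPS1#2, 9.01, 7.16 and 7.71 CPM with shTRPS1#1 and 17.8, 13.8 and 15.4 CPM with shNT, a log2 fold change of -1.11 ± 0.10 (edgeR adjusted p = 2.32e-13). LAMB3, a laminin chain, had 4.90, 4.90 and 4.89 CPM with shTRPS1#2 and 9.30, 9.99 and 10.1 CPM with shNT. In both genes shTRPS1#1 overlapped with shTRPS1#2 and not with shNT. Falls absent from shTRPS1#1 included PTK6, a cytoplasmic tyrosine kinase, at 2.13, 3.23 and 2.58 CPM with shTRPS1#2, 4.39, 5.09 and 4.85 CPM with shTRPS1#1 and 5.57, 5.44 and 4.94 CPM with shNT. PACSIN1, a membrane-bending protein of endocytosis, had 5.49, 5.48 and 4.89 CPM with shTRPS1#2, 10.1, 9.14 and 8.58 CPM with shTRPS1#1 and 10.7, 11.1 and 9.71 CPM with shNT. RYR2, the calcium release channel best known from heart muscle, had 3.81, 3.05 and 3.86 CPM with shTRPS1#2, 7.62, 6.53 and 7.41 CPM with shTRPS1#1 and 7.50, 5.35 and 6.21 CPM with shNT. In these 3 genes the shTRPS1#2 libraries were the lowest, as the rule for naming them required. NRGN, IL17RB, PIK3IP1 and CCDC184 had log2 fold changes of -0.99, -0.88, -0.72 and -0.80 with shTRPS1#2 and were not called with shTRPS1#1.

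**Figure D5:**
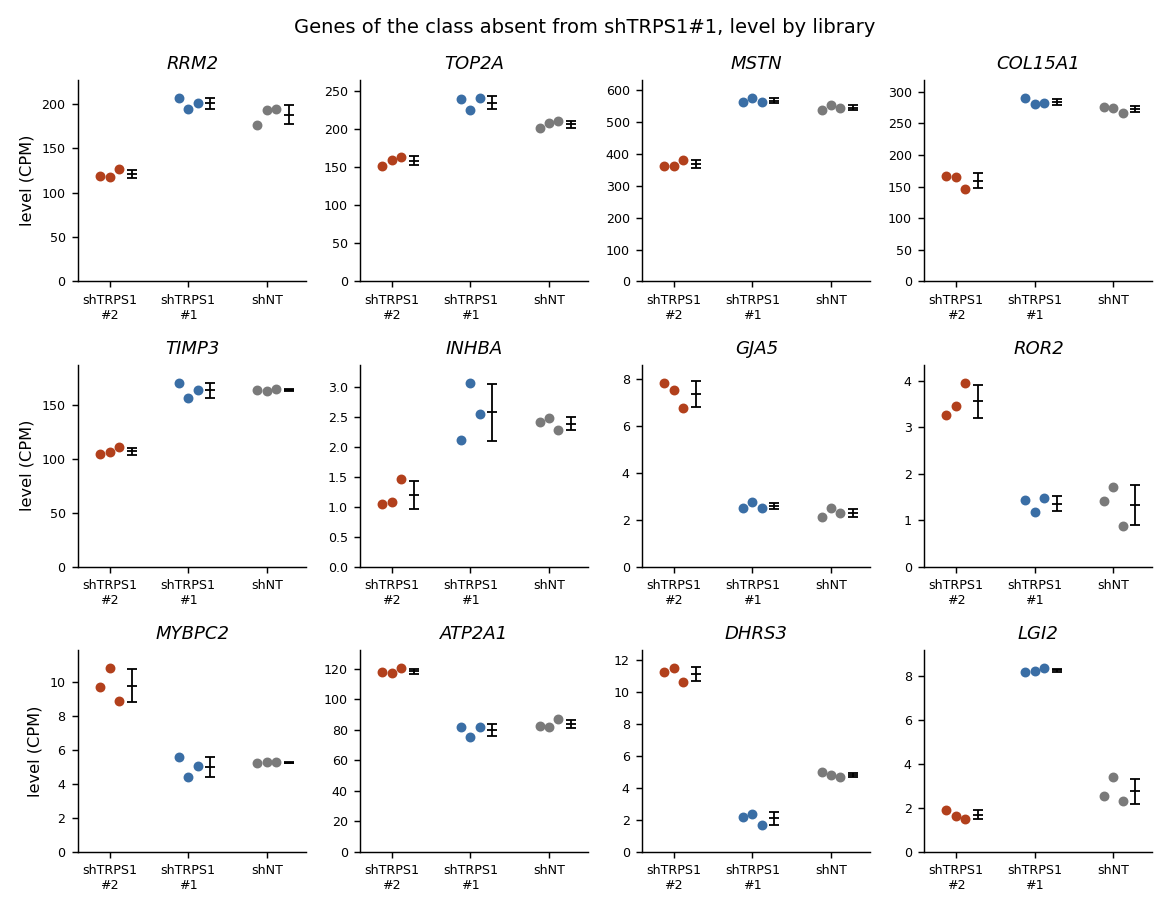
Level in CPM of 12 genes of the absent class, with 1 point per library for shTRPS1#2, shTRPS1#1 and shNT from left to right and the mean with SD beside the points (n = 3). The shTRPS1#2 points are the lowest for RRM2, TOP2A, MSTN, COL15A1, TIMP3, INHBA and LGI2 and the highest for GJA5, ROR2, MYBPC2, ATP2A1 and DHRS3.

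A smaller set was called in opposite directions. It held 174 genes (1.02% of those tested), 70 higher with shTRPS1#2 and lower with shTRPS1#1, and 104 the other way, and both calls rest on the same shNT libraries. The set held 118 genes with DESeq2 and 115 to 191 when 1 library was left out. DHRS3, a reductase that turns retinaldehyde back into retinol, had 11.2, 11.5 and 10.6 CPM with shTRPS1#2, 2.196, 2.39 and 1.65 CPM with shTRPS1#1 and 4.96, 4.77 and 4.68 CPM with shNT. CYP26B1, the enzyme that degrades retinoic acid, had 35.3, 34.8 and 33.4 CPM with shTRPS1#2, 55.6, 51.5 and 54.9 CPM with shTRPS1#1 and 49.4, 48.6 and 45.6 CPM with shNT. Both had 3 separate groups, as the rule for naming them required, with shTRPS1#2 highest for DHRS3 and lowest for CYP26B1. PTHLH, a relative of parathyroid hormone, had 14.7, 14.8 and 13.0 CPM with shTRPS1#2, 5.83, 5.99 and 5.63 CPM with shTRPS1#1 and 9.65, 8.40 and 8.88 CPM with shNT. LGI2, a secreted protein, had 1.91, 1.62 and 1.51 CPM with shTRPS1#2, 8.20, 8.24 and 8.36 CPM with shTRPS1#1 and 2.54, 3.40 and 2.32 CPM with shNT. The log2 difference between the hairpins was -2.30 ± 0.14 for LGI2 and 2.42 ± 0.12 for DHRS3 (edgeR adjusted p = 1.14e-18 and 9.38e-22). These were the largest in size of the 12 named. The 12 were chosen in part by this difference, so the values describe them and are no separate test. The LGI2 call against shNT was lost without shNT replicate 2. PITPNM3 and MFSD2A, a carrier of lysophospholipids, were lower with shTRPS1#2 and higher with shTRPS1#1, PITPNM3 overlapping PIMREG on the opposite strand.

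Markers of skeletal muscle were present, those of blood, endothelium and epithelium were low or absent, and genes on the fibroblast and smooth muscle lists were expressed. All 12 skeletal muscle markers were tested, 11 were higher with shTRPS1#2, and their summed level was 11360 to 12150 CPM with shTRPS1#2, 11160 to 11310 CPM with shTRPS1#1 and 7784 to 8193 CPM with shNT. None of 10 blood markers passed the filter, and CD3E, HBB and HBA1 had no read. Of 10 endothelial markers 4 were tested, with a sum of 11.2 to 12.4 CPM with shTRPS1#2 and 9.77 to 11.8 CPM with shNT, and of 10 epithelial markers 2 were tested and 0 called by edgeR with shTRPS1#2. Of 10 adipocyte markers 3 were tested, with 1 higher (the fatty acid carrier CD36, 0.75 ± 0.04), and of 13 cartilage and bone markers 7 were tested, with 3 lower and 0 higher. Of 12 smooth muscle markers 10 were tested, 5 higher and 1 lower, and DES is also in the skeletal muscle list. Of 12 fibroblast markers 9 were tested, 2 higher and 4 lower, with a sum of 20720 to 21020 CPM with shTRPS1#2, 23240 to 23790 CPM with shTRPS1#1 and 22000 to 22480 CPM with shNT. This sum moved with the falls among matrix genes, some of which are in both lists, and its part in them was not tested.

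Beside 9.01% of genes higher and 9.87% lower over all, the share higher by nuclear chromosome ran between 4.29% (chromosome 22) and 13.1% (chromosome 2), and the share lower between 7.53% (chromosome 21) and 11.9% (chromosome 12). Chromosome 8, which carries TRPS1, had 81 higher (12.8%) and 52 lower (8.21%) of 633 tested, chromosome 19 had 59 higher (4.92%) and 141 lower (11.8%) of 1200, and the mitochondrial genome had 0 higher and 18 lower of 23. The class absent from shTRPS1#1 took 10.9% of the genes of chromosome 8 and 9.08% of those of chromosome 19, beside 8.38% over all genes. These counts were made without a test.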

How the data were processed

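Poly(A) RNA of 9 libraries (3 hairpins, 3 libraries each) was sequenced, and a table of the whole series was analysed. Per the submitters' processing notes the tools were bcl2fastq 2.20.0.422, STAR 2.7.2b and featureCounts 1.6.5 with the build GRCh38. No label or note states their settings or whether counting used strand. The authors deposited whole-number counts per gene, which were used for every test, and RPKM values, which match the counts divided by gene length and library total to a relative deviation of 2.6e-14 and were used only as a check. Counts of 60676 genes were filtered with filterByExpr (minimum count 10), which left 17014, and 24533 genes had no read.

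One edgeR 4.0.16 quasi-likelihood fit (R 4.3.3, limma 3.58.1) with 1 mean per group over all 9 libraries, TMM scaling and 6 residual degrees of freedom gave the contrasts, with Benjamini-Hochberg adjustment over all genes tested and a threshold of 0.05. CPM are deposited counts scaled to a library total of 1000000, where the total is that of the genes tested, adjusted by TMM. The standard error of a log2 fold change was taken as its size divided by the square root of the F statistic, an approximation. DESeq2 1.42.0 was an alternative, beside other scalings, no filter, a replicate block, the 6 libraries of shTRPS1#2 and shNT alone, and leaving out each library.

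Named genes are TRPS1 and the 12 largest rises and falls among called genes. The rises and falls had an average log2 CPM of at least 1 and libraries that do not overlap between shTRPS1#2 and shNT. The same was done for the class absent from shTRPS1#1, where the shTRPS1#2 libraries also had to lie apart from those of shTRPS1#1. Of the genes called in opposite directions 6 each way were named, and their 3 groups had to be apart. Up to 6 members of each list were named, with up to 2 that moved the other way. The members and lists were chosen with earlier results of these data known. Of the lists, 4 (fast fibre, slow fibre, splicing proteins and KLHL and ASB adaptors) were written after the values had been seen. Gene positions are those of GENCODE, and promoters are RefSeq windows. Some genes that the rule names or the lists hold are counted but not reported here by name.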

Additional observations from a re-analysis of the deposited data

Results flagged for a closer look

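Differences between the hairpins drew attention for 12 genes that were called against shNT in opposite directions. The difference was computed as shTRPS1#2 minus shTRPS1#1 in edgeR's quasi-likelihood fit. Opposite calls on the same shNT libraries, ranked in part by this difference, already imply it. The values below are therefore a description. With shTRPS1#2 against shNT the log2 fold changes of the 6 genes that rose were 1.21 for DHRS3, 0.96 for SLA, 0.67 for KRT40, 0.66 for PTHLH, 0.64 for SULT1C2 and 0.62 for TAGLN3. The log2 differences of the same genes from shTRPS1#1 were 2.42 for DHRS3, 1.67 for SLA, 1.11 for KRT40, 1.28 for PTHLH, 1.18 for SULT1C2 and 1.14 for TAGLN3. The 6 genes that fell with shTRPS1#2 had log2 fold changes of -0.71 for LGI2, -0.63 for PITPNM3, -0.54 for COL9A1, -0.50 for MTHFD2, -0.48 for MFSD2A and -0.47 for CYP26B1. Their log2 differences from shTRPS1#1 were -2.30 for LGI2, -1.28 for PITPNM3, -1.02 for COL9A1, -0.70 for MTHFD2, -0.85 for MFSD2A and -0.65 for CYP26B1. The COL9A1 call against shNT was lost with DESeq2, and also when replicate 1 or 3 of shTRPS1#2 or replicate 2 of shNT was left out.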

How the results depend on the processing

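Counts of genes called with shTRPS1#2 against shNT kept within 1.5 times of 3213 under every alternative run: 3193 with RLE scaling, 3190 with library totals, 2861 with no filter, 2398 with DESeq2, 3117 with only the 6 libraries of the contrast and 2498 to 3336 when 1 library was left out. Of these calls 1598 were higher and 1595 lower with RLE scaling, 1566 and 1551 with only the 6 libraries, and 1471 and 1438 without shTRPS1#2 replicate 3, against 1533 and 1680. The class absent from shTRPS1#1 held 1061 genes with DESeq2, of which 1034 are in the class of 1426, and 1094 to 1424 when 1 library was left out. Between the hairpins 2458 to 3515 genes were called with 1 library left out, and library totals moved the share of higher calls to 53.2%, against 45.5% with TMM. Genes called in opposite directions numbered 118 with DESeq2 and 115 to 191 with 1 library left out. The 115 arose without shNT replicate 1, beside 120 and 125 without shNT replicates 2 and 3, and the cause was not tested. The TRPS1 log2 fold change stayed between -0.388 and -0.329. Deviations from the group means correlated weakly between same-numbered libraries of different groups (-0.0161 to 0.0476, against -0.0558 to 0.0423 for other pairs). The main fit did not take the numbers as pairs. Between the replicate 1 libraries the correlations were 0.0359 to 0.0476, and these libraries lay on the same side of the third principal component. Whether the replicate number marks a shared batch was not tested. With a replicate block 3434 genes were called against shNT, 3583 between the hairpins, 1534 in the absent class and 212 in opposite directions, and TRPS1 had -0.358. Of the 795 list medians recomputed under alternatives 44 moved by more than the spread between libraries. Depth limits calls at low levels, where 5.55% of the 4254 genes with the lowest levels were called.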
